A study of Homo sapiens with 24 samples.

Results

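MTATP6P1, MTCO1P12, MTND2P28 and MTCO3P12 are 4 nuclear copies of mitochondrial genes that lie close together on chromosome 1, and they are 4 of the 60308 genes in the exon count table. They were chosen from 2 measured facts about that table: these copies hold counts across the libraries, while all 37 genes on the mitochondrial chromosome are listed at 0 in every library. The levels of the copies are therefore described without a test, and their differences between groups, although taken from a fit over all genes, were known when the copies were chosen and are no independent support. Linear junction counts at 5 sites on the mitochondrial chromosome were set beside them as a second reading from that chromosome.

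Human mitochondria carry a small circular genome that encodes subunits of the respiratory chain and of ATP synthase together with the rRNAs and tRNAs that translate them inside the organelle. Over evolution, pieces of this genome were inserted into the nuclear chromosomes, where they remain as pseudogenes that differ from their source by a few substitutions. A read from mitochondrial RNA may match such a copy nearly as well as its true source, so a count on a copy does not by itself say which of them was transcribed. The sources of the 4 copies are ATP6, a subunit of the membrane part of ATP synthase, COX1 and COX3, core subunits of cytochrome c oxidase, and ND2, a subunit of complex I.

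U2OS cells, a human osteosarcoma line, were treated in 4 ways, each with 3 replicates, and every lysate was split into a soluble fraction and an insoluble fraction enriched for stress granules and P-bodies, which gave 24 libraries in 8 groups. Ctrl cells received 0.12% DMSO for 2 h, NaAsO2 cells received 500 µM sodium arsenite for 60 min, RK-33 cells received 6 µM of RK-33, an inhibitor of the RNA helicase DDX3, with 1 h of pre-treatment, and Combo cells received RK-33 before the same arsenite treatment. Nuclei were removed by slow centrifugation and the insoluble fraction was the pellet of a faster spin, so the contrast of the fractions is one of sedimentation, and the methods name no step that would remove mitochondria from either fraction. Before these spins the cells were lysed in a buffer with detergent and homogenized, and whether mitochondria or other membrane compartments stayed whole was not tested. All groups are of 1 cell line, and the methods give the sequencing as done in 3 repeats of each condition without saying what was prepared anew, so p-values measure the spread between these repeats. Libraries held 8627294 to 15376554 exon counts. NaAsO2 insoluble replicate 3 stood apart, with 5.79% of its exon counts on RN7SL1, the RNA of the signal recognition particle, against 0.426% to 1.23% in the other 11 insoluble libraries and 7.51% to 15.5% in the 12 soluble ones. Results on the copies and on gene lists that use it are given again without it where a call or count changed. Of 8 bone-lineage markers, 5 passed the filter on low values, with mean levels of 1550 CPM (counts scaled to a common library total) for COL1A1, 1473 CPM for SPARC and 65.0 CPM for RUNX2, whereas IBSP, at 0.0218 CPM, BGLAP, at 0.249 CPM, and COL1A2, at 0.307 CPM, did not. COL1A1 ranged from 765.8 to 7843 CPM over the libraries, and the 8 markers summed to as much as 9122 CPM in a NaAsO2 insoluble library.

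The 4 copies belong to a single insertion. In the GRCh38 reference, chr1:629081-634922, on the plus strand, aligns to bases 3911 to 9753 of the mitochondrial genome with 83 mismatches and 3 gap bases, an identity of 98.53%. GENCODE lists each of the copies as an unprocessed pseudogene, so they have no coding exons or UTRs and each is counted over its whole length. MTND2P28 spans chr1:629640-630683, MTCO1P12 spans chr1:631074-632616, MTATP6P1 spans chr1:633696-634376 and MTCO3P12 spans chr1:634376-634922. Their identity to the mitochondrial genome was 98.37% for MTND2P28, with 17 mismatches, 98.64% for MTCO1P12, with 20 mismatches and 1 gap base, 98.53% for MTATP6P1 and 98.17% for MTCO3P12, the last 2 with 10 mismatches each.

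A window of 100 bases from each copy is shown with its mitochondrial counterpart, because the few positions at which they differ are what a mapper can use to place a read on 1 of them. The sequences are the GRCh38 reference, plus strand, 5′ to 3′, and capitals mark the bases that differ between the lines of a pair.
MTATP6P1 at chr1:633788-633887: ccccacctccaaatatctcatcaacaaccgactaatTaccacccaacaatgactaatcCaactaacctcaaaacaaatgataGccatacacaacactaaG
mitochondrial genome at MT:8619-8718: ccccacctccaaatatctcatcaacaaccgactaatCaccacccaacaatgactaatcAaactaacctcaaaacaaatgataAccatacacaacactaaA
MTCO1P12 at chr1:631370-631469: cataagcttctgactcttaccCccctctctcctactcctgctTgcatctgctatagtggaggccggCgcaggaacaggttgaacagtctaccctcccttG
mitochondrial genome at MT:6200-6299: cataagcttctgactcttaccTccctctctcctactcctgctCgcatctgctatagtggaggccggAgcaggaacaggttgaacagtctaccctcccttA
MTND2P28 at chr1:630062-630161: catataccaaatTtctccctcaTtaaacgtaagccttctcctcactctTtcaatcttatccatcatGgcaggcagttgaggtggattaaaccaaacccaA
mitochondrial genome at MT:4892-4991: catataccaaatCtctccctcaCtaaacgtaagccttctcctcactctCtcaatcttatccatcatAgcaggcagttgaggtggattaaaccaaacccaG
MTCO3P12 at chr1:634618-634717: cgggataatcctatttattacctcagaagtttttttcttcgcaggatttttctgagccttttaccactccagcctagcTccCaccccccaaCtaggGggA
mitochondrial genome at MT:9449-9548: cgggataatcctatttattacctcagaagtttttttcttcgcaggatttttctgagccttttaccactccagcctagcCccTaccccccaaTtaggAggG
These windows were taken where differences are dense. They hold 4 differences in MTATP6P1, 4 in MTCO1P12, 5 in MTND2P28 and 5 in MTCO3P12.

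Elsewhere the differences are sparser, and the copies are not equally easy to tell from their source. Of all windows of 150 bases, the length of 1 read, 15.64% in MTND2P28 and 14.49% in MTCO1P12 held no difference from the mitochondrial genome, and the longest run of identical bases was 266 in the former and 245 in the latter. In MTATP6P1 and MTCO3P12 every such window held at least 1 difference, with longest runs of 141 and 124 bases. Written as the mitochondrial base, its position along the mitochondrial genome and the base of the copy, A8860G is the only difference between MTATP6P1 and its source over 224 bases, and A4769G is the only one between MTND2P28 and its source over 119 bases. The bases that the mitochondrial DNA of U2OS cells carries at the differing positions were not analysed here, and whether a counted fragment came from mitochondrial RNA or from chromosome 1 was not tested. MTATP6P1 overlaps MTATP8P1 and shares 1 base with MTCO3P12, and MTCO1P12 overlaps exons of other annotated genes, so fragments in those overlaps could go unassigned; counting ignored strand.

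**Figure D1:**
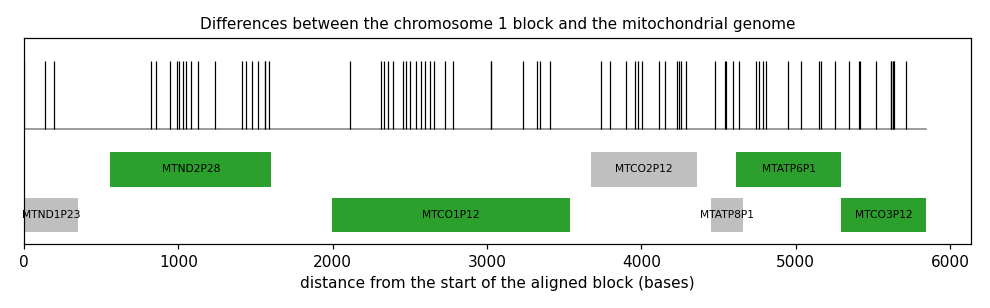
Position of each base difference between the chromosome 1 insertion and the mitochondrial genome, as ticks along the distance from the start of the aligned block in bases, with the 4 copies in green and their neighbouring copies in grey. The 83 mismatches are spread along the whole block, and no copy is free of them.

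MTATP6P1 carried nearly all counts of the 4. It held 90.3% to 96.6% of their sum over the 24 libraries, with a median of 94.0%, and from 0.00837% to 0.142% of all exon counts in a library. By mean CPM it ranked 193 of the 60308 genes, against 8301 for MTCO1P12, 9997 for MTND2P28 and 16785 for MTCO3P12. Per kilobase the mean level was 721 CPM for MTATP6P1, 12 CPM for MTCO1P12, 10.5 CPM for MTND2P28 and 2.21 CPM for MTCO3P12. Members of 1 insertion were thus counted at very unequal levels per length. All 4 passed the filter of a mean of at least 1 CPM. MTCO3P12 passed it through the soluble libraries, since its mean was under 1 CPM in each insoluble group, so a lower value in the insoluble fraction was part of its passing and its calls between fractions add nothing to those of the other 3.

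The 4 are not the only such copies in the annotation. Another 398 nuclear copies of protein-coding mitochondrial genes are listed, of which 147 had 0 counts in every library and 7 passed the filter. The 4 held 54.9% to 97.8% of the counts of all 402 copies, with a median of 89.6%. Within the insertion itself the neighbours were almost uncounted: over all 24 libraries together MTCO2P12, which lies between MTCO1P12 and MTATP6P1, held 145 counts, MTND1P23 held 110 and MTATP8P1 held 3.

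MTATP6P1 was high in every soluble library and low in every insoluble one. In Ctrl cells its level was 1298, 924.5 and 761.7 CPM in soluble replicates 1, 2 and 3 and 344.1, 285.4 and 308.5 CPM in the insoluble ones. In NaAsO2 cells it was 801.2, 724.6 and 592.6 CPM against 185.9, 196.4 and 174.1 CPM. The fractions do not overlap in either treatment. With RK-33 the soluble libraries read 987.9, 807.9 and 661.3 CPM and the insoluble ones 86.9, 86.97 and 79.01 CPM. In Combo cells the values were 716.8, 855.8 and 608.3 CPM against 81.09, 104.5 and 112.2 CPM. Soluble levels of the 4 treatments overlap one another, whereas the insoluble levels fall into a high pair of groups without RK-33 and a low pair with it, with no overlap between the pairs. CPM here is the share of a library's exon counts after scaling by the trimmed mean of M-values (TMM): less RNA of these genes and more RNA of others cannot be told apart, nor can fewer cells with the RNA and less of it per cell.

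MTCO1P12 and MTND2P28 gave the same order of fractions from far fewer counts. MTCO1P12 was at 39.9, 38.4 and 31.9 CPM in Ctrl soluble libraries and at 18.4, 13 and 15.1 CPM in the insoluble ones. With RK-33 it read 38.0, 30.4 and 19.5 CPM against 4.29, 4.09 and 5.45 CPM, from 43 to 55 counts in each insoluble library. Its fractions do not overlap in any treatment, since the NaAsO2 means were 23.3 ± 2.98 against 6.05 ± 2.07 CPM (SD, n = 3) and the Combo means 28.9 ± 5.88 against 3.75 ± 0.756 CPM. MTND2P28 fell from 34.4, 19.3 and 17.3 CPM in Ctrl soluble libraries to 10.1, 9.17 and 11.1 CPM in the insoluble ones, and from 23.7, 15.2 and 6.92 CPM to 3.00, 2.57 and 2.57 CPM with RK-33. Its soluble levels were scattered in Ctrl and RK-33 cells, with an SD of 9.31 CPM around a mean of 23.7 CPM in Ctrl cells and of 8.38 CPM around 15.3 CPM with RK-33.

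MTCO3P12 was close to the limit of what the depth can show, with 2 to 15 counts in each insoluble library and 13 to 32 in each soluble one. In Ctrl cells its mean level was 1.99 ± 0.312 CPM (SD, n = 3) for soluble and 0.879 ± 0.338 CPM for insoluble libraries. In Combo cells it was 1.87 ± 0.343 against 0.221 ± 0.0798 CPM. The NaAsO2 fractions overlap, since insoluble replicate 3 read 1.31 CPM while soluble replicate 3 read 1.19 CPM.

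**Figure D2:**
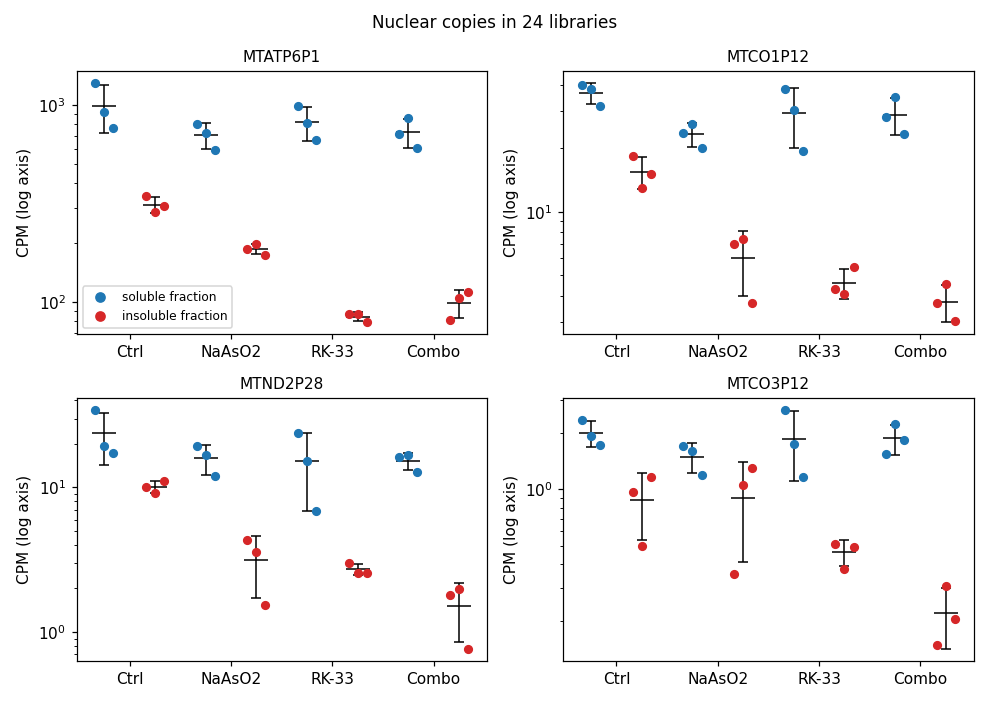
Level of each copy in CPM on a log axis for the 8 groups, with 1 point for each library, blue for soluble and red for insoluble, and a bar at the group mean ± SD (n = 3). MTATP6P1 lies between 592.6 and 1298 CPM in the 12 soluble libraries and between 79.01 and 344.1 CPM in the 12 insoluble ones, with the RK-33 and Combo insoluble libraries lowest.

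The first comparison asked which RNAs differed between the fractions of each treatment, and the copies were lower in the insoluble fraction. A gene was called where the edgeR quasi-likelihood test gave a Benjamini-Hochberg adjusted p under 0.05 over the 17666 genes tested and the log2 fold change was at least 1 in size. In Ctrl cells all 4 copies were called lower, where 22.5% of all genes were called in either direction, and for MTCO3P12 the filter favoured that direction. MTATP6P1 was 3.18-fold lower in the insoluble fraction (log2 fold change −1.67 ± 0.183 SE, edgeR adjusted p = 1.716e-07), MTCO1P12 2.37-fold (−1.25 ± 0.232, adjusted p = 0.000131), MTND2P28 2.34-fold (−1.23 ± 0.344, adjusted p = 0.00507) and MTCO3P12 2.25-fold (−1.17 ± 0.39, adjusted p = 0.0158). The calls of the smaller copies in Ctrl cells rested on single libraries. Without Ctrl soluble replicate 1, the library with the most counts on the copies, MTND2P28 was at −0.85 (edgeR adjusted p = 0.0566) and MTCO3P12 at −1.04 (adjusted p = 0.0592), and without Ctrl insoluble replicate 2 MTCO3P12 was at −0.89 (adjusted p = 0.087).

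In NaAsO2 cells 3 of the 4 copies were called lower in the insoluble fraction, with 30.6% of all genes called. MTND2P28 had a log2 fold change of −2.27 ± 0.38 (SE, edgeR adjusted p = 2.225e-05), MTATP6P1 of −1.93 ± 0.185 (adjusted p = 7.93e-09) and MTCO1P12 of −1.91 ± 0.247 (adjusted p = 7.45e-07). MTCO3P12 was at −0.77 (adjusted p = 0.0999). Without NaAsO2 insoluble replicate 3 it was at −1.02 (adjusted p = 0.0472) and was called as well, while the other 3 copies were called with and without that library.

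The folds between the fractions were larger in cells that had received RK-33 than in Ctrl or NaAsO2 cells, and the test of that difference is given further on. With RK-33 alone all 4 copies were called lower in the insoluble fraction, against 30.7% of all genes called: MTATP6P1 was 9.71-fold lower (log2 fold change −3.28 ± 0.196 SE, edgeR adjusted p = 2.7e-11), MTCO1P12 6.37-fold (−2.67 ± 0.257, adjusted p = 1.36e-08), MTND2P28 5.61-fold (−2.49 ± 0.392, adjusted p = 1.27e-05) and MTCO3P12 3.93-fold (−1.98 ± 0.423, adjusted p = 0.000392). In Combo cells the 4 were again called lower, with 23.1% of all genes called, and the folds were 7.32 for MTATP6P1 (edgeR adjusted p = 1.08e-10), 7.72 for MTCO1P12 (adjusted p = 3.9e-09), 10.1 for MTND2P28 (adjusted p = 5.96e-07) and 8.06 for MTCO3P12 (adjusted p = 9.69e-06). The median log2 fold change of the 4 copies was −1.24 in Ctrl, −1.92 in NaAsO2, −2.58 in RK-33 and −2.98 in Combo cells, while the median over all genes tested lay between −0.03 and 0.03. MTCO3P12, for which the filter favoured a lower insoluble value, is included in these counts and medians.

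Summed per library, the 4 copies were lower in the insoluble fraction in 12 of 12 lysates when fractions were matched by treatment and replicate number. The labels do not say that a number marks a shared lysate, so a lysate here and below means libraries matched in this way. The mean difference was −2.41 on the log2 scale, or 5.30-fold, with an SD of 0.728 and a range from −3.47 to −1.28 (exact sign-flip test, two-sided, n = 12, p = 0.000488, the smallest it can give, adjusted p = 0.00488 over 10 tests). Ratios of the soluble to the insoluble sum ranged from 2.42 to 3.68 in Ctrl, 3.47 to 4.28 in NaAsO2, 5.56 to 8.79 in Combo and 7.87 to 11.1 in RK-33 lysates. Every ratio with RK-33 lay above every ratio without it. Without the lysate of NaAsO2 insoluble replicate 3 the mean difference was −2.46.

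Within the soluble fraction no agent moved any of the 4 copies past the threshold, in edgeR or in DESeq2. NaAsO2 against Ctrl gave log2 fold changes of −0.66 for MTCO1P12 (edgeR adjusted p = 0.0567), −0.57 for MTND2P28 (adjusted p = 0.262), −0.49 for MTATP6P1 (adjusted p = 0.069) and −0.42 for MTCO3P12 (adjusted p = 0.464), with 1.68% of all genes called. MTCO1P12 and MTATP6P1, 2 of the copies, were at an unadjusted p under 0.05, but ranked only 2551 and 2864 of 17666 genes by p. The share of all genes under that unadjusted limit was not counted. RK-33 against Ctrl gave −0.63 for MTND2P28, −0.32 for MTCO1P12, −0.28 for MTATP6P1 and −0.10 for MTCO3P12, with 0.515% called and 0 copies at an unadjusted p under 0.05. Neither count of 0 shows that the soluble levels were equal, since the SE for MTATP6P1 was 0.178 to 0.179 and that for MTND2P28 0.331 to 0.334. The Combo comparisons in this fraction were nearer to 0 for MTATP6P1, at 0.04 ± 0.178 against NaAsO2, where 2.43% of all genes were called, and at −0.17 ± 0.178 against RK-33, where 2.02% were. For the other 3 copies the Combo values lay between −0.07 and 0.32, and 0 of the 4 were at an unadjusted p under 0.05 in either comparison.

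In the insoluble fraction calls were made for each agent alone. RK-33 against Ctrl had 3 of the 4 called lower, in a comparison in which 1.86% of all genes were called. MTATP6P1 fell 3.71-fold (log2 fold change −1.89 ± 0.186 SE, edgeR adjusted p = 3.79e-07), MTND2P28 by the same fold (−1.89 ± 0.402, adjusted p = 0.00247) and MTCO1P12 3.36-fold (−1.75 ± 0.26, adjusted p = 8.08e-05). MTCO3P12 was at −0.91 (adjusted p = 0.237). The 3 calls held without each library in turn. The Ctrl libraries serve both agents, so this result and the next share their reference.

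NaAsO2 against Ctrl in the insoluble fraction had 2 copies called lower, where 14% of all genes were called. MTND2P28 fell 3.08-fold (log2 fold change −1.62 ± 0.386 SE, edgeR adjusted p = 0.00213) and MTCO1P12 2.496-fold (−1.32 ± 0.249, adjusted p = 0.000295). MTATP6P1 was at −0.75 ± 0.18 (adjusted p = 0.00223), past the limit on p but under that on fold, and MTCO3P12 was at −0.03 (adjusted p = 0.968). Both calls were also made without NaAsO2 insoluble replicate 3, at −1.29 for MTND2P28 (adjusted p = 0.00525) and −1.03 for MTCO1P12 (adjusted p = 0.000646), with 8.58% of all genes called. That library held 13 counts on MTND2P28 and 31 on MTCO1P12, against 51 to 61 and 99 to 106 in replicates 1 and 2, whereas its MTATP6P1 level, 174.1 CPM, lay close to their 185.9 and 196.4 CPM.

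RK-33 given before NaAsO2 was compared with NaAsO2 alone, and here the calls depended on the libraries kept. In the insoluble fraction only MTCO3P12 was called lower in Combo cells (log2 fold change −1.92 ± 0.511 SE, edgeR adjusted p = 0.0169), with 3.93% of all genes called. That call rested on 5, 15 and 11 counts in NaAsO2 and 2, 4 and 3 in Combo insoluble replicates 1, 2 and 3. Both group means, 0.904 and 0.221 CPM, were under the limit of the filter, which this copy passed through its soluble libraries. MTATP6P1 was at −0.90 ± 0.182 (adjusted p = 0.0029) and so under the fold limit, MTND2P28 at −1.12 (adjusted p = 0.0948) and MTCO1P12 at −0.73 (adjusted p = 0.0701). Without NaAsO2 insoluble replicate 3, MTND2P28, at −1.44 (edgeR adjusted p = 0.0309), and MTCO1P12, at −1.01 (adjusted p = 0.00885), were called and MTCO3P12, at −1.69 (adjusted p = 0.0508), was not, with 3.24% of all genes called. Leaving out Combo insoluble replicate 3 brought MTATP6P1 to −1.03 (adjusted p = 0.00224), and leaving out Combo insoluble replicate 1 took MTCO3P12 to −1.72 (adjusted p = 0.0855). Against RK-33 alone, Combo gave no call in the insoluble fraction, where 2.62% of all genes were called, with 0.24 for MTATP6P1 (edgeR adjusted p = 0.515), −0.30 for MTCO1P12, −0.85 for MTND2P28 and −1.04 for MTCO3P12 (adjusted p = 0.325), of which 0 were at an unadjusted p under 0.05 and 0 were called by DESeq2.

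**Figure D3:**
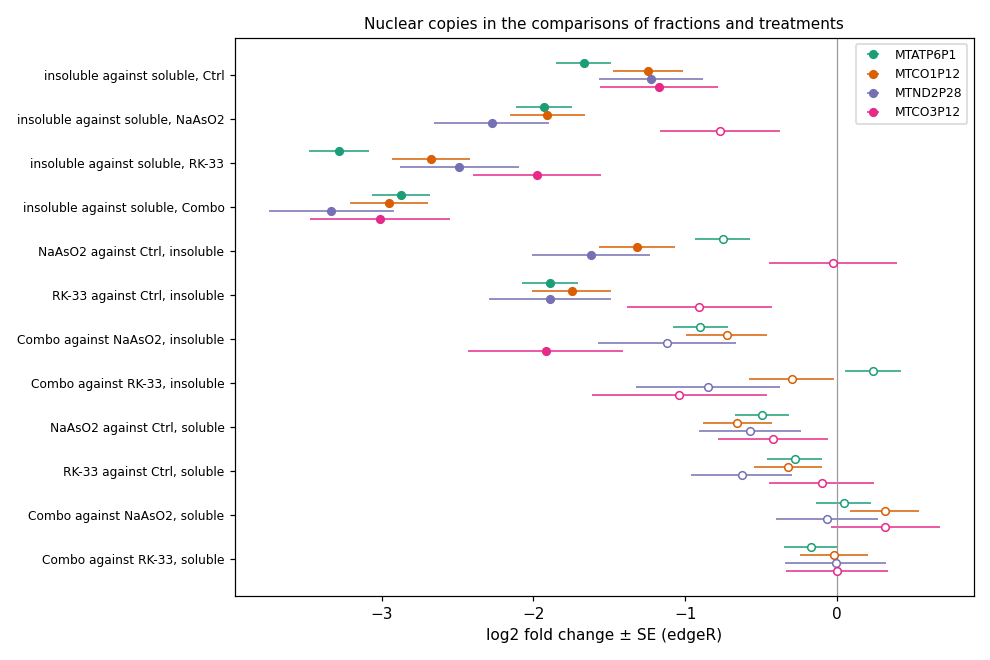
Log2 fold change ± SE of each copy in the 4 comparisons of fractions and the 8 comparisons of treatments, from the edgeR fit over 17666 genes, with filled points for called copies. All filled points lie below 0, and no point of a soluble comparison is filled.

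Whether a treatment changed the difference between fractions was tested by the interaction term of the same fit. For RK-33 against Ctrl, 2 of the 4 copies were called, both lower, in a test that called 0.436% of all genes. The fraction difference was wider with RK-33 for MTATP6P1 (change of the log2 fold change −1.61 ± 0.255 SE, edgeR adjusted p = 0.0017) and for MTCO1P12 (−1.42 ± 0.342, adjusted p = 0.0295). MTND2P28 was at −1.26 (adjusted p = 0.253) and MTCO3P12 at −0.80 (adjusted p = 0.614). The MTATP6P1 call held without each library in turn, whereas the MTCO1P12 call was lost without any 1 of 11 libraries (Ctrl soluble 1, 2 and 3, Ctrl insoluble 1 and 3, NaAsO2 soluble 1, RK-33 soluble 1 and 2 and RK-33 insoluble 1, 2 and 3), with log2 values from −1.54 to −1.19 and adjusted p from 0.0503 to 0.0891. With the replicate number as a block, which does not pair the fractions of each lysate, MTATP6P1 was called, at −1.62 (edgeR adjusted p = 0.00956). MTCO1P12, at −1.38 (adjusted p = 0.0584), was not.

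For NaAsO2 against Ctrl no copy was called in the interaction test, which called 9.56% of all genes. MTND2P28 was at −1.05 ± 0.509 (SE, edgeR adjusted p = 0.144), MTCO1P12 at −0.66, MTATP6P1 at −0.26 and MTCO3P12 at 0.40, with 0 of the 4 at an unadjusted p under 0.05 and 0 called by DESeq2. With the replicate block MTND2P28 was called, at −1.19 (edgeR adjusted p = 0.0445), and without NaAsO2 insoluble replicate 3 none was, with MTND2P28 at −0.69 (adjusted p = 0.268). For Combo against NaAsO2 none was called either, with 0.142% of all genes called, and the values were −2.24 for MTCO3P12 (edgeR adjusted p = 0.119), −1.06 for MTND2P28, −1.04 for MTCO1P12 and −0.94 for MTATP6P1 (adjusted p = 0.101). DESeq2 called 0 of them, and 3, all but MTND2P28, were at an unadjusted p under 0.05. By p, MTATP6P1 ranked 209, MTCO3P12 248 and MTCO1P12 621 of 17666 genes, and the share of all genes under that limit was not counted. Without NaAsO2 insoluble replicate 3, MTATP6P1, at −1.07 (adjusted p = 0.0151), and MTCO1P12, at −1.35 (adjusted p = 0.0185), were called in this last test, which then called 0.3% of all genes. MTATP6P1 was called as well without NaAsO2 insoluble replicate 1, at −1.05 (adjusted p = 0.0363), or without Combo insoluble replicate 3, at −1.11 (adjusted p = 0.034), and MTCO3P12 without NaAsO2 insoluble replicate 1, at −2.76 (adjusted p = 0.0128).

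The effect of each agent on the summed copies was also tested over both levels of the other agent. RK-33 lowered the sum in the insoluble fraction by 1.39 on the log2 scale, or 2.63-fold (−1.88 without and −0.91 with NaAsO2; exact permutation test, two-sided, n = 12, p = 0.005, the smallest it can give, adjusted p = 0.01 over 10 tests). In the soluble fraction the effect was −0.11 (exact permutation p = 0.525). NaAsO2 gave −0.31 in the insoluble fraction (exact permutation p = 0.105, adjusted p = 0.131), made up of −0.79 in cells without RK-33 and 0.18 in cells with it, and −0.32 in the soluble fraction (exact permutation p = 0.1, adjusted p = 0.131). Without NaAsO2 insoluble replicate 3 the insoluble effects were −1.42 for RK-33 and −0.28 for NaAsO2. The mean insoluble sum was 339.1 ± 32.9 CPM in Ctrl, 195.6 ± 14.02 in NaAsO2, 92.1 ± 3.96 in RK-33 and 104.8 ± 15.8 in Combo cells (SD, n = 3).

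The junction table gave a second reading from the mitochondrial chromosome itself. It lists linear read counts at sites where a back-splice junction, the join of a circular RNA, was found in some library, and 5 of its 394 rows lie on the mitochondrial chromosome. In GRCh38 these are bases 5902 to 6522 on the plus strand, annotated as MT-CO1, bases 13978 to 14149 on the plus strand, annotated as MT-ND5, and 3 sites without annotation on the minus strand, at 13306 to 13435, 13436 to 13583 and 13449 to 13583. These 3 lie opposite MT-ND5, which spans bases 12337 to 14148 of the plus strand. The site from 13449 lies inside that from 13436, so they are not independent readings. The back-splice junctions themselves held 45 counts on the plus strand and 177 on the minus strand over all libraries and were not tested. None of the 5 sites lies in the sources of MTATP6P1, MTND2P28 or MTCO3P12, and the MT-CO1 site overlaps the start of the source of MTCO1P12.

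The sites of the plus strand moved in the direction of the copies. The MT-CO1 site held 5891, 5507 and 5190 linear counts in Ctrl soluble replicates 1, 2 and 3 and 4469, 3647 and 4100 in the insoluble ones. With RK-33 it held 5453, 5239 and 4332 counts in the soluble libraries and 1262, 1094 and 1048 in the insoluble ones. The fractions do not overlap in either treatment, and the insoluble counts with RK-33 lie far below those of Ctrl cells. In NaAsO2 insoluble libraries the site held 2549, 2557 and 813 counts, the last in replicate 3, and in Combo insoluble libraries 983, 1186 and 982. MT-ND5 gave 859, 617 and 774 counts in RK-33 insoluble libraries and 792, 1102 and 1248 in Combo insoluble ones, against 4761, 3676 and 3303 in Ctrl insoluble libraries.

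Counts at the 3 minus-strand sites stayed in a narrow range in the soluble libraries whatever their depth: the highest count was 1.12, 1.13 and 1.27 times the lowest, against 1.57 and 1.59 times at the plus-strand sites. Whether these counts are limited from above by the way they were made was not tested. Over the 5 sites together, the mean level, scaled to exon counts like CPM but without TMM, fell by 0.65 on the log2 scale, or 1.57-fold, from the soluble to the insoluble fraction, and was lower in 11 of 12 lysates (exact sign-flip test, two-sided, n = 12, p = 0.00146, adjusted p = 0.00732 over 10 tests). The plus-strand sites alone fell further, by 1.48 on the log2 scale at both the MT-CO1 and the MT-ND5 site (exact sign-flip test, adjusted p = 0.00244 for each). RK-33 lowered the mean of the 5 sites 1.88-fold in the insoluble fraction (log2 −0.91, exact permutation p = 0.005, adjusted p = 0.01) and NaAsO2 1.47-fold (log2 −0.56, exact permutation p = 0.005, adjusted p = 0.01), while in the soluble fraction the effects were −0.29 for RK-33 (exact permutation p = 0.06, adjusted p = 0.1) and −0.16 for NaAsO2 (exact permutation p = 0.26, adjusted p = 0.289). In the insoluble fraction the RK-33 effect was −1.38 at MT-CO1 alone (exact permutation, adjusted p = 0.02) and −1.99 at MT-ND5 alone (adjusted p = 0.0125), beside −1.39 for the summed copies, and the NaAsO2 effect was −1.06 at MT-CO1 alone (adjusted p = 0.0125) and −0.40 at MT-ND5 alone (adjusted p = 0.171). The NaAsO2 effect on the 5 sites in the insoluble fraction was lost with undivided counts, at −0.17 (exact permutation, adjusted p = 0.406), and was −0.50 (adjusted p = 0.01) without NaAsO2 insoluble replicate 3.

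**Figure D4:**
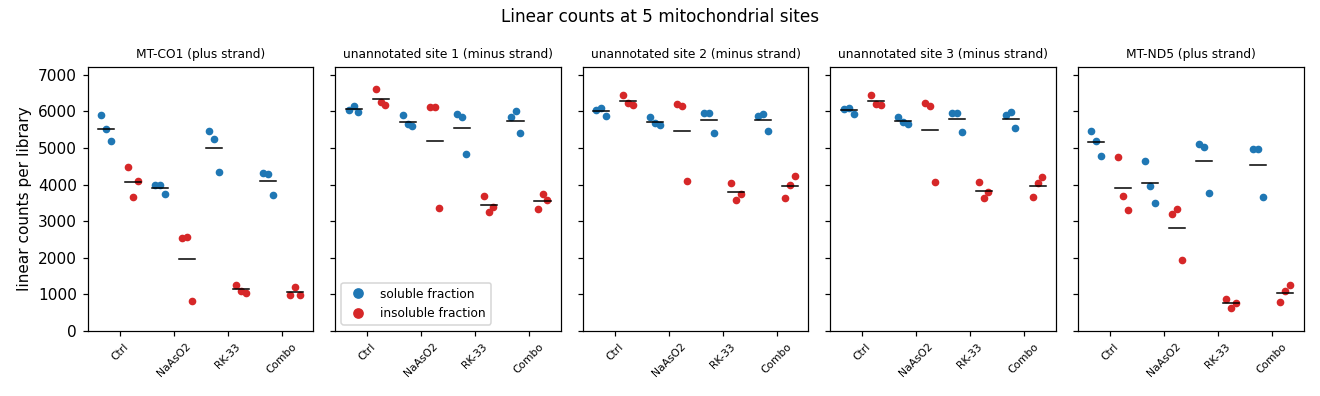
Linear junction counts at the 5 mitochondrial sites in each library, by group, with soluble libraries in blue, insoluble libraries in red and a line at each group mean (n = 3). The MT-CO1 and MT-ND5 sites drop in the insoluble libraries with RK-33, to between 982 and 1262 and between 617 and 1248 counts, while the 3 unannotated minus-strand sites stay between 4846 and 6156 counts in soluble libraries.

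The fraction difference of the copies and that of the sites were not of the same size. In Ctrl cells the minus-strand sites were no lower in the insoluble fraction, with means of 650.5 ± 92.3 against 627.2 ± 60.7 counts per 1e+06 exon counts at the site from 13306 (SD, n = 3), which differ by less than their spread, and the ratio over the 5 sites was 0.920 in Ctrl lysate 1. The soluble to insoluble ratio of the summed copies was larger than that of the 5 sites in 12 of 12 lysates and larger than that of the MT-CO1 site alone in 10 of 12. For the 5 sites the ratios ranged from 0.920 to 1.36 in Ctrl, 1.39 to 1.57 in NaAsO2, 1.48 to 2.02 in RK-33 and 1.84 to 2.48 in Combo lysates, and for the MT-CO1 site from 1.18 to 1.60, 2.11 to 3.98, 3.26 to 4.29 and 3.70 to 5.62 in the same order. The copies were scaled by TMM and the sites by total exon counts, so the denominators of these ratios are not the same. With library size alone the mean log2 difference of the copies was −2.419, beside −2.407 with TMM. An upper limit on the minus-strand counts, which stayed at 4846 to 6156 in soluble libraries at the site from 13306, would lower the ratio of the 5 sites. Its part in this comparison was not tested. The order of treatments also differed, since RK-33 lysates had the highest mean ratio of the copies, 9.36, and Combo lysates, at 4.57, that of the MT-CO1 site.

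Across the 12 soluble libraries the log2 sum of the copies and the log2 mean of the 5 sites had a Pearson r of 0.591 (permutation p = 0.041, adjusted p = 0.0616 over 6 relations) and a Spearman rho of 0.636 (permutation p = 0.0303, adjusted p = 0.0495). Without the 2 libraries farthest from the median of the sites, r was 0.77. With the MT-CO1 site alone r was 0.735 (permutation p = 0.00597, adjusted p = 0.0219), rho was 0.776 (permutation p = 0.00447, adjusted p = 0.0268) and r without the 2 farthest libraries was 0.787. Scaled to exon counts, this site lay at 515.1 to 601.6 in Ctrl soluble libraries. Its highest value was 485.3 in RK-33, 425.4 in NaAsO2 and 402.5 in Combo soluble libraries. Copies and sites are both divided by exon counts of the same library, and minus-strand counts varied little in soluble libraries. The soluble r and rho thus cannot tell a relation between libraries from a difference between treatments or a shared denominator. The insoluble libraries form separate clusters by treatment, those without RK-33 in both measures and those with it in the level of the sites, at 239.8 to 267.1 for RK-33 and 185.2 to 217.7 for Combo on the scale of the plot of sites and copies. The other relations were those within the insoluble libraries without and with RK-33 (n = 6 each). For the 5 sites r was 0.957 without RK-33 (permutation p = 0.0109, adjusted p = 0.0219) and −0.477 with it (permutation p = 0.321, adjusted p = 0.321). For the MT-CO1 site alone it was 0.941 and −0.510. Each set holds 2 of these clusters, so r cannot tell a relation between libraries from a difference between treatments.

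**Figure D5:**
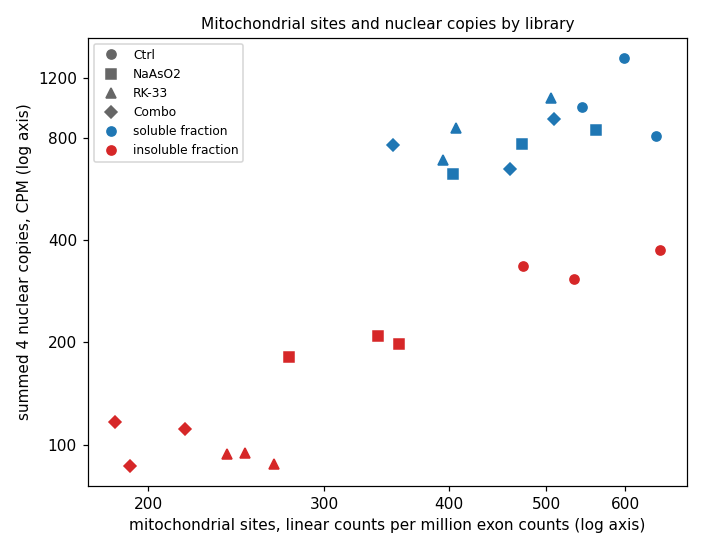
Summed CPM of the 4 copies against the mean of the 5 mitochondrial sites scaled to total exon counts, both on log axes, with 1 point for each of the 24 libraries coloured by fraction. The soluble libraries lie at 625.8 to 1375 CPM and the insoluble libraries with RK-33 at 86.7 to 116.2 CPM.

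Nuclear copies from elsewhere in the genome differed among themselves. Of the 7 other copies that were tested, 4 were called higher in the insoluble fraction of Ctrl cells, where 22.5% of all genes were called: MTCO1P48 on chromosome 2 (log2 fold change 2.01, edgeR adjusted p = 0.0017), MTND5P29 (1.98, adjusted p = 0.00212) and MTCO3P45 (1.85, adjusted p = 0.0091) on the same chromosome and MTCO1P1 on chromosome 21 (1.42, adjusted p = 0.0291). None was called lower there. MTND5P29 averaged 0.456, 0.739, 0.483 and 1.13 CPM in Ctrl, NaAsO2, RK-33 and Combo soluble libraries, and MTCO1P1 0.851, 0.606, 0.520 and 2.09 CPM. The filter on low values thus favoured a higher insoluble value for MTND5P29, and MTCO1P1 lay near its limit in the soluble fraction. With RK-33, where 30.7% of all genes were called, 4 of the 7 were higher and 1 lower, MTND4P12 on chromosome 5 at −1.21 (adjusted p = 0.00579), and in Combo cells, with 23.1% of all genes called, 2 were higher and 1 lower, again MTND4P12, at −1.39 (adjusted p = 0.00211). MTND4P12 was lower in Ctrl cells too, without passing, at −0.79 (adjusted p = 0.0529). In NaAsO2 cells edgeR called none of the 7, against 30.6% of all genes, and 1, a higher one, without NaAsO2 insoluble replicate 3, against 29.5%. For NaAsO2 against Ctrl in the insoluble fraction 4 of the 7 were called lower, with a median of −1.30 and 14% of all genes called. Among these, MTCO1P28 held only 3 to 6 counts in each NaAsO2 insoluble library, and MTCO1P1 averaged 0.637 CPM there. Without NaAsO2 insoluble replicate 3 the number called lower was 3, with 8.58% of all genes called. The other copies summed to 26.3 to 38.2 CPM in Ctrl soluble and 73.5 to 82.6 CPM in Ctrl insoluble libraries, the reverse order of the 4 copies of the chromosome 1 insertion.

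The 4 copies also varied together from library to library. Over the 24 libraries the log2 level of each correlated with the sum of the other 3 at r = 0.962 for MTATP6P1, 0.968 for MTCO1P12, 0.925 for MTND2P28 and 0.896 for MTCO3P12, and r ranged from 0.793 to 0.903 within the 12 soluble and from 0.659 to 0.868 within the 12 insoluble libraries. These are descriptions over libraries that differ by fraction, and fragments of the 4 come from 1 stretch of sequence in the same libraries. Of 17655 genes outside the insertion and its kin, those whose log2 level followed the sum of the 4 most closely over the 24 libraries were SLC50A1 (r = 0.957), which encodes a sugar transporter, CD63 (0.956), a tetraspanin of late endosomes, GAR1 (0.954), a protein of box H/ACA ribonucleoproteins, GRINA (0.954) and COX6C (0.954), a nuclear-encoded subunit of cytochrome c oxidase. Group means of COX6C ran from 38.1 CPM in Ctrl soluble to 13.98 CPM in Ctrl insoluble and 7.10 CPM in RK-33 insoluble libraries.

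Nuclear genes that serve the same organelle were read from fixed lists, given here by their counts. Of 73 tested nuclear-encoded subunits of complexes I, III, IV and V, the partners of the mitochondrial gene products in the respiratory chain, 49 were called lower in the insoluble fraction in Ctrl, 58 in NaAsO2, 59 in RK-33 and 59 in Combo cells, and none was higher. These are 67.1%, 79.5%, 80.8% and 80.8% of the list, against 22.5%, 30.6%, 30.7% and 23.1% of all genes tested, and without NaAsO2 insoluble replicate 3 the NaAsO2 count was 64, with 29.5% of all genes called. Their median log2 fold change was −1.28, −2.10, −1.77 and −1.58 in that order. COX7A2 was at −1.81 in Ctrl cells (edgeR adjusted p = 5.54e-09) and COX5B at −2.13 with RK-33 (adjusted p = 6.62e-11). The copies and these subunits were thus both lower in the insoluble fraction, and the widest median was with NaAsO2 for the subunits and with Combo for the copies. For RK-33 against Ctrl in the insoluble fraction 1 of the 73 was called (1.37%, against 1.86% of all genes), ATP5F1C at −1.01 (edgeR adjusted p = 0.00261). The median of the 73 was −0.49, against −1.82 for the 4 copies. None was called in the RK-33 interaction test, which called 0.436% of all genes. Both counts are near the share over all genes and do not set the subunits apart.

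Genes of the mitochondrial expression machinery were called in both directions, at shares near or below those of all genes. Of 32 tested, 4 were called higher and 1 lower in the insoluble fraction of Ctrl cells, 4 and 7 in NaAsO2, 2 and 5 in RK-33 and 2 and 5 in Combo cells, or 15.6%, 34.4%, 21.9% and 21.9% of the list against the shares of all genes just given. Without NaAsO2 insoluble replicate 3 the NaAsO2 counts were 3 and 7, with 29.5% of all genes called. LRPPRC, which stabilises mitochondrial mRNAs, was higher at 1.88 in Ctrl cells (edgeR adjusted p = 8.76e-11), while SLIRP, its binding partner, was lower at −1.61 (adjusted p = 6.11e-07). None of the 32 was called for RK-33 against Ctrl in the insoluble fraction, where 1.86% of all genes were. Markers of another membrane compartment were in part lower there as well. Of 22 genes encoding chaperones and translocon subunits of the endoplasmic reticulum, 7 (31.8%, against 1.86% of all genes) were called lower with RK-33 and 15 did not pass, the 7 including KDELR1 at −1.51, DDOST at −1.29 (edgeR adjusted p = 8.51e-09) and PDIA3 at −1.22, with a median of −0.90 over the 22. With NaAsO2 12 were called lower (54.5%, against 14% of all genes), and 12 without NaAsO2 insoluble replicate 3 (against 8.58% of all genes). Of 4 nuclear-retained RNAs tested, NEAT1 and KCNQ1OT1 were called higher and MALAT1 lower in the insoluble fraction of every treatment. The part of membrane compartments or of nuclear RNA in the values of the copies was not tested.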

How the data were processed

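Exon counts of 24 libraries, with 3 in each of the 8 groups given by the labels, were used as deposited. According to the methods and the labels, the authors aligned 150-base paired reads of rRNA-depleted, directional libraries to GRCh38 with STAR 2.7.2b and converted the alignments with SAMtools 1.2. They made the deposited counts per gene name with featureCounts 1.5.3, without strand, on GENCODE release 40, and used only uniquely mapped reads for gene expression. Such counting leaves out reads that match a copy and the mitochondrial genome equally well. The deposited linear and back-splice junction counts name the mitochondrial chromosome MT, the exon counts chrM. Records broken over more than 1 line were rejoined, for 1 gene in the exon counts and 21 genes in the intron counts. The authors' intron counts entered only an alternative denominator.

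The 17666 genes averaging 1 CPM or more were fitted over all 24 libraries in edgeR 4.0.16 (R 4.3.3) with TMM factors from 0.817 to 1.09 and the quasi-likelihood test. The SE is the log2 fold change divided by the square root of F. Calls needed both an adjusted p below 0.05 and a fold change of 1 or more on the log2 scale, in either direction. The fit was tested on simulated data. Single values were tested in SciPy 1.17.1 by exact sign flips over 12 lysates, matched by treatment and replicate number, or exact permutation within levels of the other agent, with 100000 resamples for correlations of 12 or 6 libraries. Alternatives included DESeq2 1.42.0, and gene lists were counted again without NaAsO2 insoluble replicate 3, a choice made after seeing the data. Replicates of a group differed by more than counting noise (chi-square per degree of freedom 2.39 to 142), so none was merged. Reference sequence was read from GRCh38 and aligned with Biopython 1.88. The members and lists were chosen with earlier results of these data known. The genes named are the 4 copies, the other copies tested, and from each list those with the smallest adjusted p among the called, and the genes most alike in level.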

Additional observations from a re-analysis of the deposited data

Results flagged for a closer look

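The difference between fractions was not the same with RK-33 as in Ctrl cells for 2 of the 4 copies, by the interaction term of the edgeR fit. For MTATP6P1 the log2 difference between insoluble and soluble libraries was −3.28 with RK-33 and −1.67 in Ctrl cells, a change of −1.61 (adjusted p = 0.0017). For MTCO1P12 the change was −1.42 (adjusted p = 0.0295), from −1.25 to −2.67, but this call was lost with the replicate block (adjusted p = 0.0584), with library size alone (adjusted p = 0.0839) and without any 1 of 11 libraries.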

How the results depend on the processing

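With a limit of 2 on the absolute log2 fold change, 0 copies were called between fractions in Ctrl and 1 in NaAsO2 cells, and 0 for NaAsO2 or RK-33 against Ctrl or Combo against NaAsO2 in the insoluble fraction and for the RK-33 interaction. For Combo against NaAsO2 in the insoluble fraction, 2 copies were called with no filter on low counts, with the likelihood ratio test, with no fold limit and with DESeq2, and 0 in a fit of the compared groups alone, where 14 genes in all were called against 694. The RK-33 interaction gave 1 call, MTATP6P1, when scaled by library size alone, and the Combo interaction 1 with no filter. The cause of these changes was not tested. Leaving out 1 library at a time gave 2 to 4 calls between fractions in Ctrl cells, 0 to 2 for Combo against NaAsO2 in the insoluble fraction, 1 to 2 for the RK-33 interaction and 0 to 2 for the Combo interaction. Except for the fit of the compared groups alone, the share of all genes called under these settings is not set beside the counts. They thus show only how far calls of the copies depended on the setting.

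The methods compare fractions in pairs, and on that ground the summed values were matched by treatment and replicate number, while the edgeR fit had no block. Labels do not say that a number marks a shared lysate, and deviations from the group means did not show it: 2 of 12 such pairs of fractions correlated at r over 0.1 (range −0.299 to 0.143), and same-numbered libraries of different treatments ranged from −0.335 to 0.718. With the replicate block, 2 copies were called for Combo against NaAsO2 in the insoluble fraction, 1, MTND2P28, in the NaAsO2 interaction and 1, MTATP6P1, in the RK-33 interaction, where MTCO1P12 was at −1.38 (edgeR adjusted p = 0.0584) and 39 genes in all were called against 77. Totals over all genes with the block are not given for the Combo comparison and the NaAsO2 interaction.

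Signs turned only for values near 0. MTCO3P12 for NaAsO2 against Ctrl in the insoluble fraction was at 0.0396 with RLE factors, 0.0813 with no filter, 0.0422 in DESeq2 and 0.0498 with the compared groups alone. MTND2P28 for Combo against NaAsO2 in the soluble fraction was at 0.0389 with library size alone. For Combo against RK-33 in the soluble fraction, MTND2P28 was at 0.0784 and MTCO3P12 at 0.0017 with the replicate block. Leaving out 1 library gave −0.30 to 0.49 for MTCO3P12 under NaAsO2 in the insoluble fraction and −0.44 to 0.13 under RK-33 in the soluble fraction, −0.0391 to 0.198 for MTATP6P1 and −0.20 to 0.14 for MTND2P28 for Combo against NaAsO2 in the soluble fraction, and −0.24 to 0.20 for MTCO1P12, −0.35 to 0.44 for MTND2P28 and −0.23 to 0.32 for MTCO3P12 for Combo against RK-33 there. The NaAsO2 effect on the sites was −0.17 with undivided counts (exact permutation, adjusted p = 0.406) and −0.40 at MT-ND5 alone (adjusted p = 0.171) in the insoluble fraction, and −0.43 at MT-CO1 alone in the soluble fraction (adjusted p = 0.0417).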
